A study of Mus musculus with 52 samples.

Results

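DNA mismatch repair corrects bases that were mispaired during replication, and the chromatin accessibility of the promoters of 7 of its genes was followed in mouse embryonic stem cells (mESCs). The genes were Msh6, Msh3, Mlh3, Pms1, Pms2, Exo1 and Pcna, and they were chosen because Msh6 became less accessible in Kdm2a/b-JmjC cells after tamoxifen. For 6 of the 7 genes there was 1 promoter each among the 20633 promoters of the tables. No row matched Pcna, the sliding clamp of replication, and it was not analysed here.

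The assay was cATAC-seq, a calibrated ATAC-seq: Tn5 transposase inserts adapters where DNA is open, and a spike-in of Drosophila SG4 cells sets the scale of each library. The study compared 4 conditional lines, each untreated and after 800 nM 4-hydroxytamoxifen for 96 h, to ask whether KDM2A and KDM2B shape accessibility at CpG island promoters. The lines were Kdm2a/b-JmjCfl/fl, in which both genes carry loxP sites around the JmjC exons, Kdm2a/b-CXXCfl/fl, with loxP sites around the ZF-CxxC exon of both genes, and the single lines Kdm2b-CXXCfl/fl and Kdm2a-CXXCfl/fl, all named here without the suffix. There were 3 untreated and 3 treated libraries per line, and 4 of each in Kdm2a/b-CXXC, in all 26 libraries, described as biological replicates. Every line, untreated cells included, carried the loxP sites and a tamoxifen-activated CRE recombinase expressed from Rosa26. In Kdm2a/b-JmjC, which was derived from mice, the deletion takes out JmjC demethylase exons of both genes and so the long forms of the proteins, while the short forms stay. In the CXXC lines the proteins named lose the ZF-CxxC domain, their contact with non-methylated CpG. Kdm2a was edited with CRISPR, in Kdm2b-CXXC cells to give Kdm2a/b-CXXC, and targeted clones were isolated. No treated line without loxP sites was analysed here, so an effect of tamoxifen or CRE itself cannot be told apart from that of the deletion. Values are reads over a 400 bp promoter interval over the spike-in size factor of the library, called calibrated reads. The intervals of Kdm2a and Kdm2b lie at the start sites and not over the deleted exons, and so do not check the deletion.

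The 26 libraries held 1.49 to 3.03 M promoter reads (1 M is 1000000), and the members held 64 to 502 reads in a library, which corresponds to a counting error of 4.46% to 12.5%. Median untreated levels over the promoters of 9 stem cell markers lay between 56.3 and 117 calibrated reads by line, against 15.5 to 23.2 for 5 fibroblast genes and 5.20 to 11.0 for 4 genes closed in mESCs. The stem cell median was below that of all promoters in Kdm2a/b-JmjC (56.3 against 71.9) and above it in the other lines. Esrrb was the lowest stem cell marker in each line, at 8.45 to 12.1, near the medians of the closed genes. Promoters of 4 extraembryonic endoderm, 3 mesoderm and 2 neuroectoderm genes had medians of 39.1 to 123, which overlap those of the stem cell markers, so these levels do not separate the lineages. In Kdm2b-CXXC the replicate 1 libraries of both groups stood apart, with calibrated totals of 2.96 M untreated and 3.19 M treated against 1.75 to 2.12 M in the other 4 libraries.

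Mismatch repair starts when a MutS complex binds a mispaired or looped-out base. MSH6 is the subunit for single mispairs and short loops, and MSH3 the subunit for longer loops. MutL complexes are recruited next: PMS2 is the subunit with the nicking activity of the main complex, MLH3 forms a complex best known from meiotic crossing over, and PMS1 forms a further complex of less clear function. EXO1, a 5′ to 3′ exonuclease, then removes the strand that carries the error, and replication proteins refill the gap. The pathway is of interest beside the KDM2 demethylases because the PWWP domain of MSH6 binds trimethylated H3K36, the neighbouring state of the dimethylated H3K36 that KDM2A and KDM2B act on.

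The 6 promoters were read from the GRCm38.p6 genome, the same build as the mm10 used by the authors. The Msh6 interval (NM_010830, chr17:87974850-87975249, plus strand) held 200 bp upstream, 99 bp of 5′ UTR and 101 bp of coding sequence. The Msh3 interval (NM_010829, chr13:92354804-92355203, minus strand) held 200 bp upstream, 103 bp of UTR and 97 bp of coding sequence. The Mlh3 interval (NM_001304475, chr12:85270392-85270791, minus strand) held 200 bp upstream, 27 bp of UTR and 173 bp of the first intron. The Pms1 interval (NM_153556, chr1:53296797-53297196, minus strand) held 168 bp upstream, 143 bp of UTR and 89 bp of intron. The Pms2 interval (NM_008886, chr5:143909801-143910200, plus strand) held 200 bp upstream, 56 bp of UTR, 23 bp of coding sequence and 121 bp of intron. The Exo1 interval (NM_012012, chr1:175880578-175880977, plus strand) held 200 bp upstream, 79 bp of UTR and 121 bp of intron.

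All 6 intervals were CpG-rich (GC of 0.5 or more, observed over expected CpG of 0.6 or more), as were 54.6% of the 20630 promoters with a composition. They held 46 CpG in Msh6, 44 in Msh3, 38 in Pms1, 38 in Exo1, 33 in Mlh3 and 30 in Pms2, against a median of 24 over all promoters and 37 over CpG-rich ones. The upstream windows of Msh6, Mlh3 and Exo1 are shown because CpG is what the ZF-CxxC domain binds. Each runs from position -200 to -1, where 0 is the start site and the gene reads 5′ to 3′, with CpG in capitals. They lie at chr17:87974850-87975049 on the plus strand for Msh6, chr12:85270592-85270791 on the minus strand for Mlh3 and chr1:175880578-175880777 on the plus strand for Exo1.
Msh6: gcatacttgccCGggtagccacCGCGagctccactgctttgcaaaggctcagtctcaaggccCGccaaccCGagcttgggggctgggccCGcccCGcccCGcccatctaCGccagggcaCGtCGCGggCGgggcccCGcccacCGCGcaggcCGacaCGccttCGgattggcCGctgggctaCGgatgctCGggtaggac
Mlh3: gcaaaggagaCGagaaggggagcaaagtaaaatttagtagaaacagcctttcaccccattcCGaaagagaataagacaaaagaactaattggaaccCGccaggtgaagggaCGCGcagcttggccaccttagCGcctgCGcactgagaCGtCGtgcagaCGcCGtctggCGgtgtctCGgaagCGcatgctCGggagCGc
Exo1: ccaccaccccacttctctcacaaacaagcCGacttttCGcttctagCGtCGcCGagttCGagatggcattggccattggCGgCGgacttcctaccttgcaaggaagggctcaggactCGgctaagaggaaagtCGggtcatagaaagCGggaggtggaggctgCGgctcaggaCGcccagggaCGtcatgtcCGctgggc
In these windows the Msh6 promoter held 22 CpG, Mlh3 16 and Exo1 15.

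An E2F motif, the binding site of the factors that switch on genes of DNA replication, was found in 3 of the 6 intervals, against 3.85% of all promoters and 5.94% of CpG-rich ones. The search took TTTCCCGC, TTTCGCGC, TTTGCCGC or TTTGGCGC on either strand. The matches lay at position 15 in Msh6, at -198 and 110 in Msh3, and at 188 in Exo1, and they are shown in capitals with 9 bases on either side.
Msh6, chr17:87975056-87975081, plus strand: cctcccgacTTTCCCGCcagcggcgg
Msh3, chr13:92355185-92355210, minus strand: tcaagtttgGCGCGAAAtcgcagccc
Msh3, chr13:92354877-92354902, minus strand: caatgccccGCGGGAAAtccgcgtcg
Exo1, chr1:175880957-175880982, plus strand: tgcccctcgGCGCGAAAcccggatct
The first Msh3 stretch also holds TTTGGCGC, which overlaps the marked match but starts before the counted interval. It was not counted, and its bases outside the marked match are in lower case. A match is a description of the letters, and binding at these positions was not measured.

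The Msh3 promoter held 4 GC boxes (GGGCGG on either strand) at positions -150, -102, -54 and -6, with 48 bp from each to the next. They are shown in capitals, on the minus strand, because at least the first 3 sit in a tandem repeat.
Msh3, chr13:92355137-92355162: gcttaggccCCGCCCccaccaaggcc
Msh3, chr13:92355089-92355114: gctaaggctCCGCCCctaccaaggcc
Msh3, chr13:92355041-92355066: gctaaggccCCGCCCccaccaaggcc
Msh3, chr13:92354993-92355018: gctaaggctCCGCCCccaaggccggt
Over 42 bases from each box, compared without gaps, the unit at -150 matched that at -102 at 41 positions. The unit at -102 matched that at -54 at 39, and the unit at -54 matched that at -6 at 17. The printed bases before the box at -6 are the same as those before the box at -102. The count of 17 therefore does not show where the repeat ends. GC boxes were in 5 of the 6 members, all but Mlh3, and in 56.3% of all promoters and 82.7% of CpG-rich ones.

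An ETS motif (CCGGAAG on either strand) was found in Pms1 and Pms2, in 2 of 6 members against 14.1% of all promoters and 21.7% of CpG-rich ones. The 2 matches of Pms1 overlap on opposite strands and are printed as 1 run of capitals.
Pms1, chr1:53297085-53297110, minus strand: gccccaccgCTTCCGGAAGgctgcca
Pms2, chr5:143909928-143909953, plus strand: ctagcccgcCCGGAAGgggcggatca
Pms2, chr5:143910138-143910163, plus strand: ttgaaaggaCCGGAAGtggctgaggc
The upstream ETS match of Pms2 shares bases with a GC box at -68. CCAAT was in 5 members, all but Msh3, against 40.0% of all promoters and 37.8% of CpG-rich ones, and an NRF1 motif (GCATGCGC) was in Mlh3 alone, at -18, against 3.93% and 6.10%. A CRE (TGACGTCA), a YY1 motif (AAGATGGC) and a TATA box (TATAAA) were in 0 of the 6 members, against 2.56%, 4.59% and 10.4% of all promoters and 3.69%, 6.58% and 4.54% of CpG-rich ones.

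Upstream of 3 members, another gene starts on the opposite strand within 1000 bp. Ormdl1 starts 67 bp upstream of Pms1, Aimp2 162 bp upstream of Pms2, and Gm36360, which has no row, 23 bp upstream of Exo1. The counted intervals of these pairs share 302 bp (Pms1 and Ormdl1) and 239 bp (Pms2 and Aimp2), so their values share reads and are not separate measurements.

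**Figure D1:**
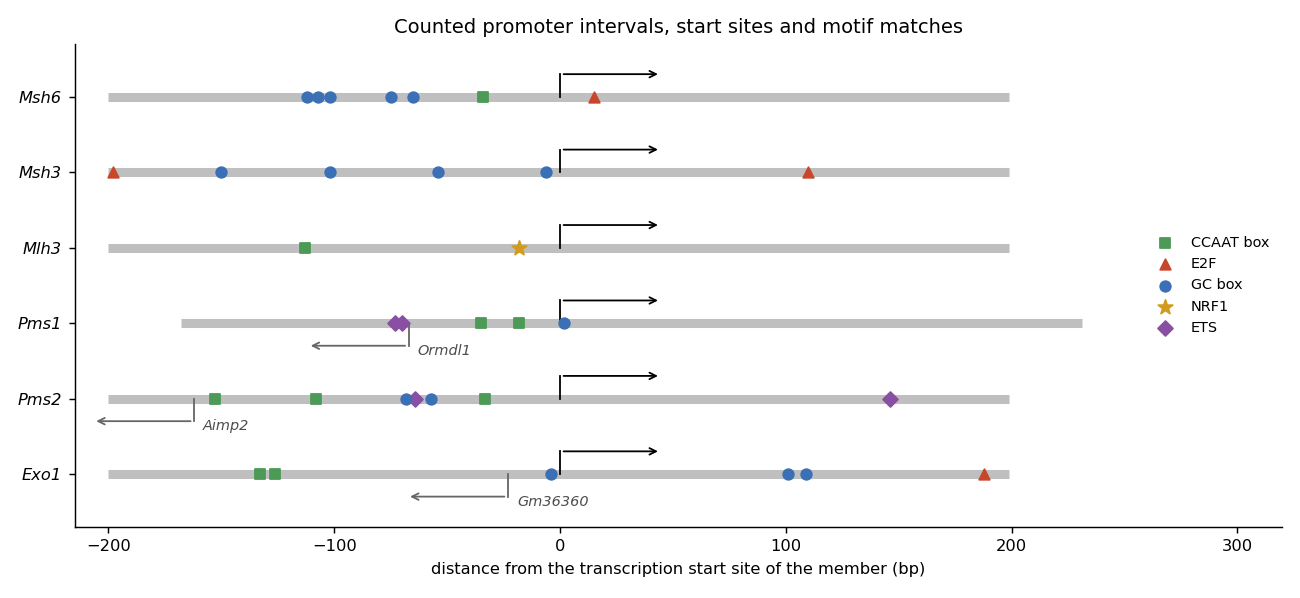
Counted intervals (grey bars) of the 6 mismatch repair promoters by distance from the member's start site in bp, with the first base of each motif match as a symbol and the start and direction of an opposite-strand neighbour in grey below the bar. The 4 GC boxes of Msh3 are evenly spaced by 48 bp, and the start of Ormdl1 lies 67 bp upstream of that of Pms1.

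In untreated cells the members were above the median level of all promoters in each line. Pms1, Pms2 and Msh6 stood highest, at percentiles 87.8 to 97.2 of all promoters by line, Msh3 at 83.4 to 86.0, Exo1 at 68.1 to 80.5, and Mlh3 at 59.1 to 69.6. Among CpG-rich promoters alone Mlh3 stood at percentiles 31.8 to 48.1 and Msh6 at 82.2 to 87.7. All intervals have the same length, so these levels can be compared between genes within a line.

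The order of the untreated levels was close to the same in each line. In Kdm2a/b-JmjC it ran from Pms1 (260.5 ± 21.6 calibrated reads, SD, n = 3) through Pms2 (212 ± 14.0), Msh6 (201 ± 22.9), Msh3 (181 ± 10.2) and Exo1 (158 ± 18.1) to Mlh3 (122 ± 26.2). Only Pms1 stood clear of its neighbour there, and every other pair of neighbours in the order overlapped. Pms2 led in Kdm2a/b-CXXC (183 ± 8.84, n = 4) and in Kdm2b-CXXC (279 ± 110.2, n = 3), and Pms1 in Kdm2a-CXXC (359 ± 30.7, n = 3). Mlh3 was last in all 4 lines, and it was clear of the next gene, Exo1, in Kdm2a-CXXC only. In Kdm2a/b-CXXC and Kdm2b-CXXC every pair of neighbours in the order overlapped.

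Loss of the KDM2 long forms in Kdm2a/b-JmjC cells was the contrast the members were chosen on. The values of this contrast, and the calls given for it below, are a description and not a test of the members. Msh6 had 212, 217 and 175 calibrated reads in the 3 untreated libraries and 130.3, 125 and 129.9 after tamoxifen. The 3 treated libraries lay close together and below all untreated ones. The means were 201 ± 22.9 and 128 ± 2.79 (SD, n = 3), a log2 fold change of -0.64 with a standard error of 0.15. On a fold scale the treated level was 0.643 of the untreated one. In such bulk samples, fewer cells with an open promoter and less opening per cell cannot be told apart.

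Msh3, the other MutS gene, had 185, 169.5 and 189 calibrated reads untreated and 153, 126 and 134 after tamoxifen, again without overlap. Its log2 fold change was -0.40 with a standard error of 0.15. Mlh3 had 104, 152 and 111 untreated and 86.5, 71.3 and 107 after tamoxifen. The treated library with 107 was above the lowest untreated one, and the log2 fold change was -0.46 with a standard error of 0.18.

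Pms2, with 218, 222 and 196 calibrated reads untreated and 198, 177 and 171 after tamoxifen, overlapped by a single pair of libraries, 198 against 196. Pms1 had 242, 256 and 284 untreated and 249, 230.2 and 229 after tamoxifen. Exo1 had 173, 138 and 163 untreated and 151, 113 and 162 after tamoxifen. Both overlapped, with log2 fold changes of -0.14 for Pms1, -0.17 for Exo1 and -0.22 for Pms2.

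All promoters as a whole were lower after tamoxifen in this line, and the members' values are read beside that. The median log2 fold change over the 17174 promoters tested was -0.21 and over the 6 members -0.31. Relative to all promoters, Msh6 was lower by a log2 difference of -0.43, Mlh3 by -0.25 and Msh3 by -0.19, while Pms2 (-0.01), Exo1 (0.04) and Pms1 (0.07) were at the general level. Msh6 lay at percentile 3.71 of the changes of all promoters. With TMM scaling of the reads, which sets the bulk of promoters to no change, the log2 fold change of Msh6 was -0.43, and those of Pms1 (0.07) and Exo1 (0.04) turned positive.

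By limma at the thresholds of the study, an adjusted p below 0.05 and more than 1.4-fold, 13 promoters (0.0757%) were called lower in Kdm2a/b-JmjC. The study itself used DESeq2 and reported no CpG island promoter past these thresholds in this line. DESeq2 run here on the recovered reads called 12 promoters. The counts made here cover all promoters and not those at CpG islands alone. The reason for the difference from the study was not tested. Msh6 was the 1 member among the 13 called by limma, which is what the choice of members rests on. The next members by fold were Mlh3, at 0.725 of the untreated level, and Msh3, at 0.759, and both missed the fold threshold as well as that on p. Treated libraries were all below untreated ones at 2 of 6 members, Msh6 and Msh3, and at 23.2% of all promoters. Msh6 was no longer among the called promoters with TMM scaling, with or without a replicate block, or with median-of-ratios scaling. The same held without untreated replicate 1, untreated replicate 2, treated replicate 2 or treated replicate 3. DESeq2 gave Msh6 no adjusted p in this line. The log2 fold change of Msh6 without any 1 library stayed between -0.73 and -0.58.

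**Figure D2:**
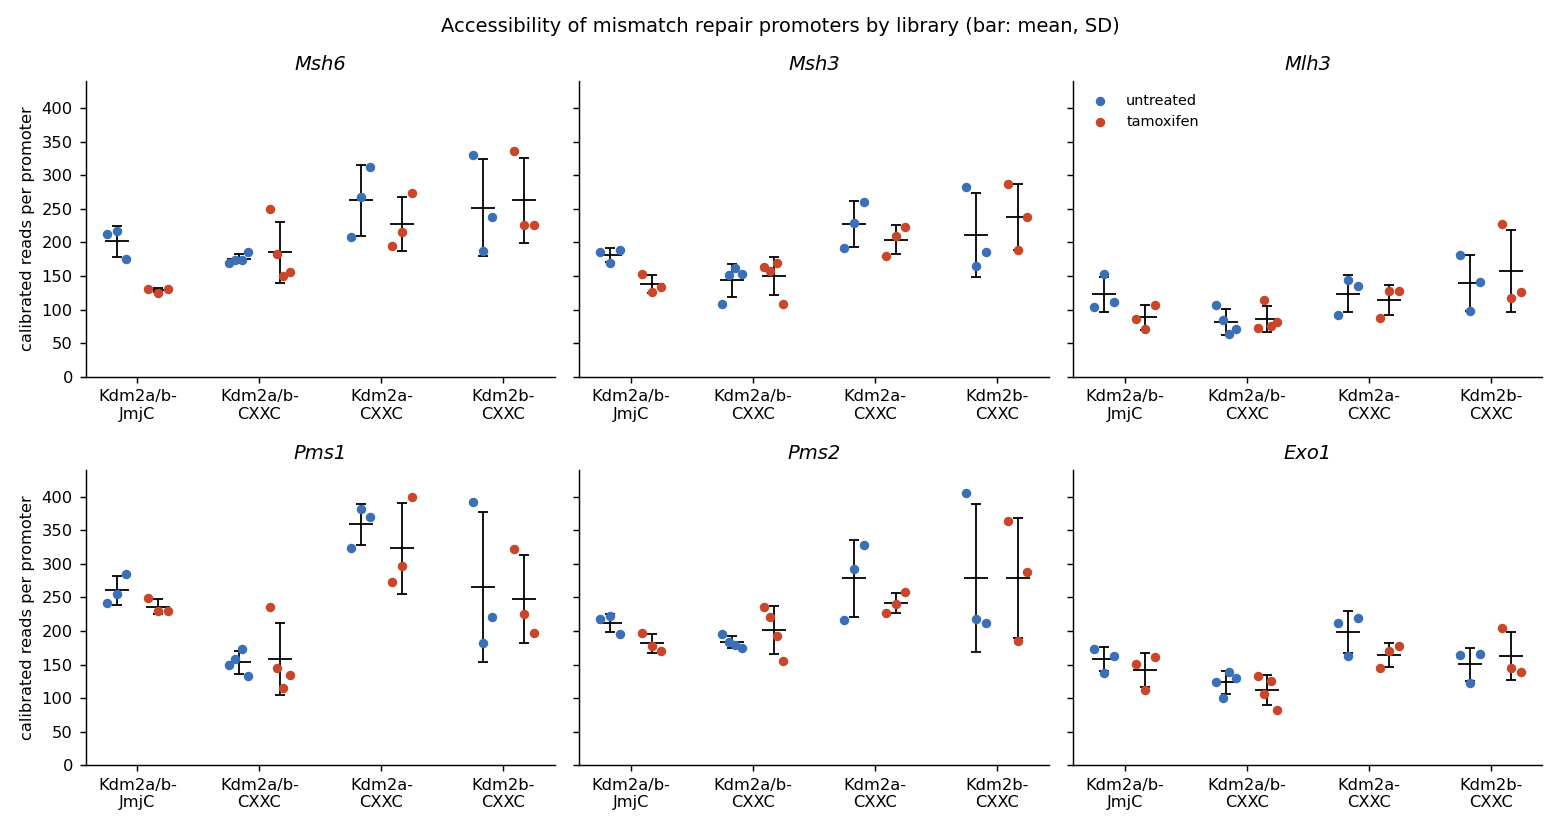
Calibrated reads per promoter (y axis) of the 6 members in each untreated (blue) and tamoxifen-treated (red) library of the 4 lines (x axis), with the mean and SD of each group in black. In Kdm2a/b-JmjC the 3 treated libraries of Msh6, at 125 to 130.3, lie below the 3 untreated ones, and in the other lines the groups overlap for every member.

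The 3 lines that lose the ZF-CxxC domain were not used to choose the members, and there the changes were tested. In Kdm2a/b-CXXC, where both KDM2 proteins lose their hold on CpG islands, none of the 6 promoters changed by the test. Msh6 had 169.9, 173, 174 and 185 calibrated reads untreated and 250.0, 183, 149.6 and 156 after tamoxifen. The highest value came from treated replicate 1, the library with the highest calibrated total of the line (2.04 M), and the treated values lay on both sides of the untreated ones. The log2 fold change was 0.04 (95% confidence interval -0.30 to 0.39, limma adjusted p = 0.996).

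Msh3 had 108, 151, 161 and 153 calibrated reads untreated and 163, 158, 169 and 108 after tamoxifen in Kdm2a/b-CXXC, a log2 fold change of 0.06 (interval -0.31 to 0.42). Mlh3 had 107, 83.7, 63.7 and 71.6 untreated and 72.1, 114, 75.3 and 81.1 after tamoxifen, a log2 fold change of 0.07 (-0.33 to 0.48). In both genes the groups overlapped. Exo1 had the lowest log2 fold change of the members, -0.15 (-0.53 to 0.22), with 101 to 139.6 reads untreated and 82.7 to 133 after tamoxifen. Pms1 (-0.01, -0.37 to 0.35) and Pms2 (0.12, -0.23 to 0.46) completed the set, whose median was 0.05 beside 0.09 for all 16413 promoters.

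In Kdm2a-CXXC, where KDM2A alone is displaced, all 6 log2 fold changes were below 0, as were those of 81.2% of the 17727 promoters tested. Msh6 had 207, 268 and 312 calibrated reads untreated and 195, 215 and 273 after tamoxifen, a log2 fold change of -0.20 (interval -0.55 to 0.15, limma adjusted p = 0.68). Msh3 had 191, 229 and 259 untreated and 179.6, 210.0 and 222 after tamoxifen (-0.15, -0.51 to 0.21). In both genes the lowest treated library was below all untreated ones and the other treated libraries were within the untreated range.

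Mlh3 changed by -0.11 on the log2 scale (-0.51 to 0.30) in Kdm2a-CXXC, Pms1 by -0.17 (-0.50 to 0.16), Pms2 by -0.18 (-0.53 to 0.16) and Exo1 by -0.26 (-0.63 to 0.11). The median of the 6 was -0.18, the same as that of all promoters to 2 decimals. With TMM scaling the members lay between -0.09 and 0.07, and 3 of 6 were below 0. None passed the test on either scale.

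In Kdm2b-CXXC, where KDM2B alone is displaced, Msh6 had 329.7, 188 and 238 calibrated reads untreated and 336, 226 and 225 after tamoxifen. Replicate 1 was the highest library of each group here, as it was in the calibrated totals. The log2 fold change was 0.07 (interval -0.65 to 0.79, limma adjusted p = 1.00). Msh3 changed by 0.19 (-0.53 to 0.91), Mlh3 by 0.14 (-0.58 to 0.86), Exo1 by 0.10 (-0.62 to 0.82), Pms2 by 0.02 (-0.71 to 0.74) and Pms1 by -0.05 (-0.77 to 0.67).

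The standard errors of the members in Kdm2b-CXXC were 0.367 to 0.369, against 0.169 to 0.206 in the other CXXC lines. TMM scaling narrowed the intervals, and on that scale Msh6 was at -0.03 (-0.24 to 0.17), with means of 264 ± 6.35 untreated and 258 ± 12.6 treated TMM-scaled reads (SD, n = 3). Msh6 on the TMM scale was at -0.04 (-0.25 to 0.16) in Kdm2a/b-CXXC and at -0.03 (-0.24 to 0.19) in Kdm2a-CXXC. The difference between these lines and Kdm2a/b-JmjC was not tested, because Msh6 was chosen on that line.

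The number of members called was 0 of 6 in each CXXC line by limma, edgeR and DESeq2, and 0 of 6 had an unadjusted p under 0.05 by any of the 3 tools. All promoters gave the same background: 0% of those tested were called in these lines by limma, with 764, 1488 and 120 at an unadjusted p under 0.05, and edgeR and DESeq2 also called 0. Groups overlapped at all 6 members in these lines, while they did not overlap, either way, at 14.5% of promoters for Kdm2a-CXXC, 2.4% for Kdm2a/b-CXXC and 2.58% for Kdm2b-CXXC. A p that misses the threshold does not show that the levels were equal, and the intervals above give the sizes that remain possible.

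**Figure D3:**
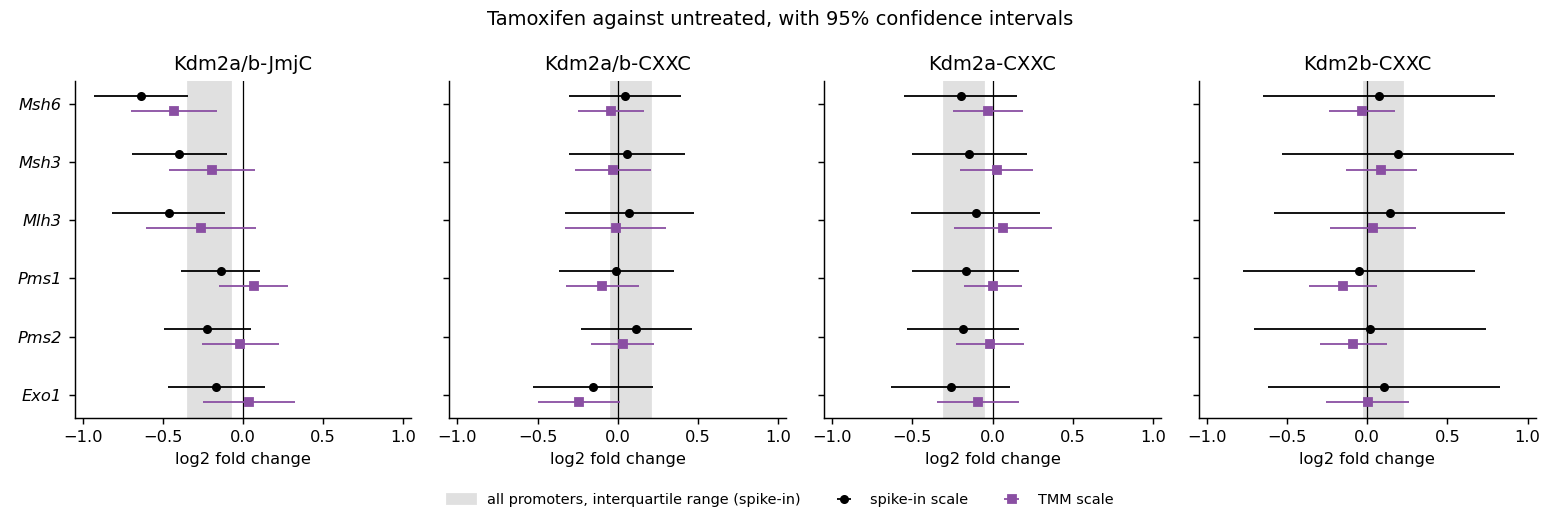
Log2 fold change after tamoxifen (x axis) of each member (y axis) in the 4 lines with 95% confidence intervals, on the spike-in scale (black circles) and with TMM scaling (purple squares); the grey band is the interquartile range of all promoters on the spike-in scale. On both scales Msh6 in Kdm2a/b-JmjC lies furthest from 0, at -0.64 and -0.43, and in the CXXC lines every interval includes 0.

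Whether the 3 CXXC lines differed from each other in the change of a member was tested as a difference of changes. The changes in Kdm2a/b-CXXC minus those in Kdm2a-CXXC ran from 0.11 for Exo1 to 0.30 for Pms2, with intervals between -0.55 and 0.93. Against Kdm2b-CXXC they ran from -0.26 for Exo1 to 0.10 for Pms2, with intervals between -0.91 and 0.73. Kdm2a-CXXC minus Kdm2b-CXXC gave -0.37 for Exo1 to -0.12 for Pms1, with intervals between -1.07 and 0.56. Of the 6 members, 0 differed in any of the 3 comparisons by limma at an adjusted p under 0.05, 0 had an unadjusted p under 0.05, and 0% of all promoters were called. At an unadjusted p under 0.05 there were 607, 105 and 454 promoters, in the order given; Msh6 itself differed by 0.24, -0.03 and -0.27.

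The genes that start opposite the members were read beside them, as values that share reads. Ormdl1 had a log2 fold change of -0.17 beside -0.14 for Pms1 in Kdm2a/b-JmjC and -0.23 beside -0.17 in Kdm2a-CXXC. Aimp2 was at -0.09 in Kdm2a/b-JmjC, where Pms2 was at -0.22, and at 0.11 beside 0.12 in Kdm2a/b-CXXC. Neither neighbour passed the test in any line, with the lowest limma adjusted p, 0.408, for Ormdl1 in Kdm2a/b-JmjC.

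The later steps of the pathway were read from a list of 14 genes of resynthesis and ligation. It held the clamp loader (Rfc1 to Rfc5), the single-strand binding protein RPA (Rpa1 to Rpa3), DNA polymerase delta (Pold1 to Pold4) and the ligase Lig1. The list also held the mitochondrial Ssbp1, which is not a step of nuclear mismatch repair. All 14 had a row, and 13 were tested in Kdm2a/b-JmjC and 14 in each CXXC line. None was called in any line by limma. An unadjusted p below 0.05 was found for 3 of 13 in Kdm2a/b-JmjC, where 20.6% of all promoters had one. Ssbp1 was among these 3 (limma unadjusted p = 0.046). In each other line 0 of 14 had one. Their median log2 fold change was -0.24 in Kdm2a/b-JmjC beside -0.21 for all promoters, 0.09 beside 0.09 in Kdm2a/b-CXXC, -0.22 beside -0.18 in Kdm2a-CXXC and 0.11 beside 0.10 in Kdm2b-CXXC.

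Among the 13 tested in Kdm2a/b-JmjC, Rfc2 was lowest (-0.32) and Pold4 highest (-0.03). Lig1, left out there by the filter on low reads, had 13.5 ± 6.01 calibrated reads untreated and 6.15 ± 2.61 after tamoxifen (SD, n = 3). Lig1, which seals the repaired strand, had the lowest value in the 3 CXXC lines, -0.62, -0.34 and -0.47, at levels of 14.6 to 23.9 calibrated reads untreated, where the standard errors were 0.41 to 0.49. Pold4 was highest in Kdm2a/b-CXXC (0.31) and Kdm2a-CXXC (0.05), and Rfc4 in Kdm2b-CXXC (0.31). None of these values passed the test.

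Msh4 and Msh5, the MutS homologues of meiosis, had untreated means of 53.7 to 131 and 129 to 222 calibrated reads in these mitotic cells. Msh5 was above the median level of all promoters in each line. Msh4 was below that median in Kdm2a/b-CXXC (53.7 against 62.3) and Kdm2a/b-JmjC (70.3 against 71.9). It was above the median in Kdm2b-CXXC (94.0 against 92.7) and Kdm2a-CXXC (131 against 82.1). In Kdm2a/b-JmjC the log2 fold change of Msh5 was -0.31 (unadjusted p under 0.05, limma adjusted p = 0.24) and that of Msh4 was 0.06. Neither was called in any line, and in the CXXC lines their values lay between -0.15 and 0.34.

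Base excision repair, which mostly removes damaged bases, was covered by 16 genes, of which 15 had a row and were tested in each line. None was called in any line by limma. In Kdm2a/b-JmjC 3 of 15 had an unadjusted p below 0.05, in Kdm2a-CXXC 1, and in the other lines 0, beside 20.6% and 8.39% of all promoters in the first pair of lines. The median was below 0 in Kdm2a-CXXC (-0.22) and Kdm2a/b-JmjC (-0.21) but above 0 in Kdm2b-CXXC (0.10) and Kdm2a/b-CXXC (0.12). In Kdm2a/b-JmjC, Parp1, the sensor of strand breaks, was lowest at -0.33, and the glycosylase Neil1 highest at 0.21. In Kdm2a/b-CXXC the uracil glycosylase Ung was lowest at -0.10 and Neil1 highest at 0.33.

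In Kdm2a-CXXC Neil3 was lowest at -0.43 and Nthl1 highest at 0.11, and in Kdm2b-CXXC Neil2 was lowest at -0.22 and Neil1 highest at 0.80. In that last line Neil1 had 19.7 ± 7.66 calibrated reads untreated and 33.2 ± 2.61 after tamoxifen (SD, n = 3), with all treated libraries above the untreated ones, and the limma adjusted p was 1.00. Of the list's 15 promoters, all treated libraries were lower at 5 in Kdm2a/b-JmjC, beside 23.2% of all promoters, and at 4 in Kdm2a-CXXC, where groups did not overlap, either way, at 14.5%.

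The H3K36 methyltransferases, which write the marks that KDM2 proteins and MSH6 act on or bind, gave 6 rows for 5 genes, of which 3 were tested in each line but Kdm2b-CXXC, where 4 were. None of the tested rows was called in any line by limma, and 0 had an unadjusted p under 0.05. Nsd2 and the Nsd3 row NM_001081269 were left out by the read filter in every line, and Ash1l in every line but Kdm2b-CXXC. In untreated Kdm2a/b-JmjC that Nsd3 row had 3.27 calibrated reads, against 217 for the tested row NM_001001735. Setd2, which places trimethylation on H3K36, was lowest in Kdm2a/b-JmjC at -0.36 and highest in Kdm2a-CXXC at -0.07. Nsd1 was highest in Kdm2a/b-JmjC at 0.05 and lowest in the CXXC lines at -0.02, -0.31 and -0.15. Nsd3 was highest in Kdm2a/b-CXXC at 0.04, and Ash1l in Kdm2b-CXXC at 0.84, where its level was 7.44 ± 3.46 calibrated reads untreated and 13.7 ± 5.06 after tamoxifen (SD, n = 3).

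**Figure D4:**
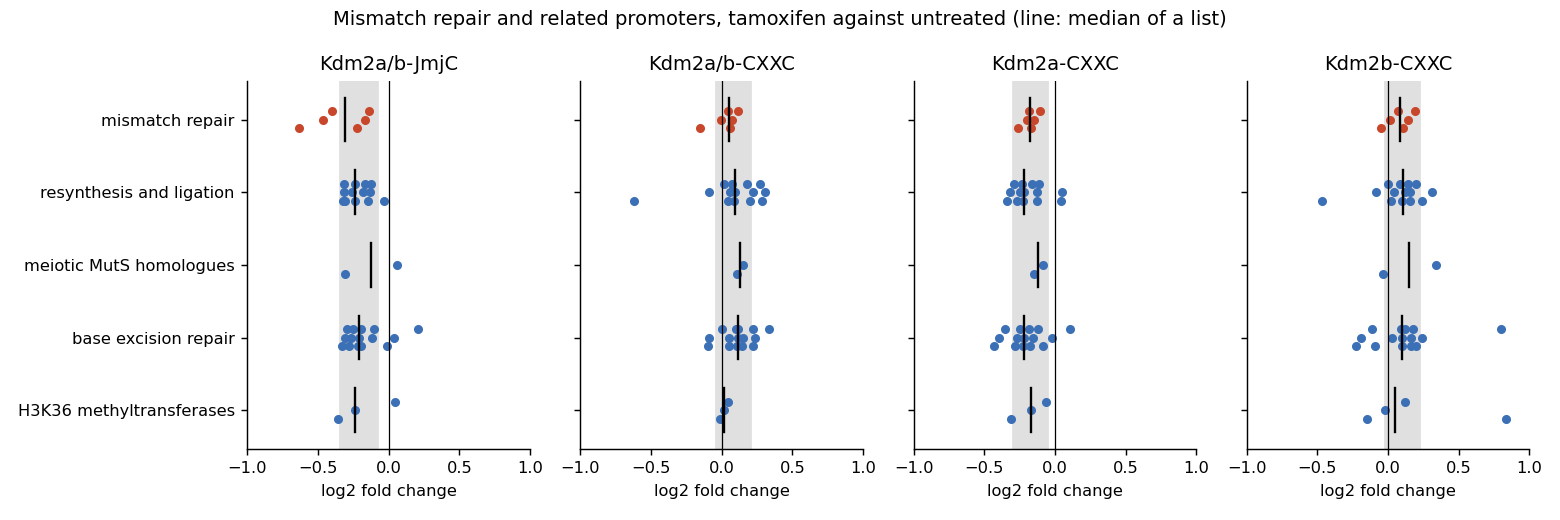
Log2 fold change after tamoxifen on the spike-in scale (x axis) of each tested promoter in the mismatch repair set (red) and 4 related lists (blue) in the 4 lines, with the median of each list as a black line and the interquartile range of all promoters as a grey band. Msh6, at -0.64, is the leftmost point in Kdm2a/b-JmjC, and the list medians lie near those of all promoters in every line.

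Over the 26 libraries, the members were correlated in pairs after the mean of each line was removed. Counting error lowers such correlations, so low values do not show that the members moved separately. On the TMM scale the 15 pairs of members had correlations from -0.43 to 0.22 with a median of -0.16, and on the spike-in scale from 0.30 to 0.77 with a median of 0.60. On the spike-in scale the promoters of a library share its size factor. The promoters most like Msh6 on the TMM scale, among the 16030 tested in all lines, were those of Cables1 (r = 0.80), Slc9a2 (r = 0.77) and Gxylt2 (r = 0.76), and their log2 fold changes in Kdm2a/b-JmjC were -0.64, -0.88 and -1.01. These correlations are descriptions over libraries that include the contrast Msh6 was chosen on.

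Each line has its own calibration, so levels were set across lines only as shares of a library's promoter reads, in untreated cells and with no test. Per 1 M promoter reads, Msh6 took 109.7 ± 10.7 in Kdm2a/b-JmjC, 113 ± 13.9 in Kdm2a-CXXC, 110.5 ± 2.62 in Kdm2b-CXXC (SD, n = 3 each) and 116 ± 7.37 in Kdm2a/b-CXXC (n = 4). Msh3 and Pms2 were as even, between 92.5 and 99.0 and between 116 and 121 on the same scale. Mlh3 ran from 53.1 ± 9.71 in Kdm2a-CXXC to 66.5 ± 12.1 in Kdm2a/b-JmjC, and Exo1 from 68.0 ± 11.7 in Kdm2b-CXXC to 86.4 ± 12.1 in Kdm2a/b-JmjC, with overlapping libraries in both genes. Pms1 took 142 ± 13.9 and 155 ± 9.59 in Kdm2a/b-JmjC and Kdm2a-CXXC, against 101 ± 8.14 and 114 ± 16.2 in Kdm2a/b-CXXC and Kdm2b-CXXC. The lowest library of the first 2 lines, at 134, was above the highest of the other 2, at 133.

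Pms1 and Exo1 lie on chromosome 1, and the other promoters of that chromosome differed between the lines as well. Relative to the mean of the other 3 lines, the log2 share of Pms1 was 0.23 in Kdm2a/b-JmjC and 0.39 in Kdm2a-CXXC, but -0.42 in Kdm2a/b-CXXC and -0.20 in Kdm2b-CXXC. Mlh3, on chromosome 12, was at 0.24 in Kdm2a/b-JmjC and -0.18 in Kdm2a-CXXC, where the promoters of its chromosome had medians of -0.02 and -0.05. The 212 promoters within 20 Mb of Pms1, a window chosen after the values were seen, had medians of 0.25 in Kdm2a/b-JmjC, 0.40 in Kdm2a-CXXC, -0.38 in Kdm2a/b-CXXC and -0.33 in Kdm2b-CXXC. Exo1, near the other end of the chromosome, was at 0.14, 0.13, 0.04 and -0.31 in this order of lines, and the 260 promoters within 20 Mb of it at 0.40, -0.10, -0.08 and -0.14. All promoters tested had medians between -0.07 and 0.03. The part of chromosome dosage in these shares was not tested, and a share that is constant within a line cancels in the comparison of treated with untreated cells.

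**Figure D5:**
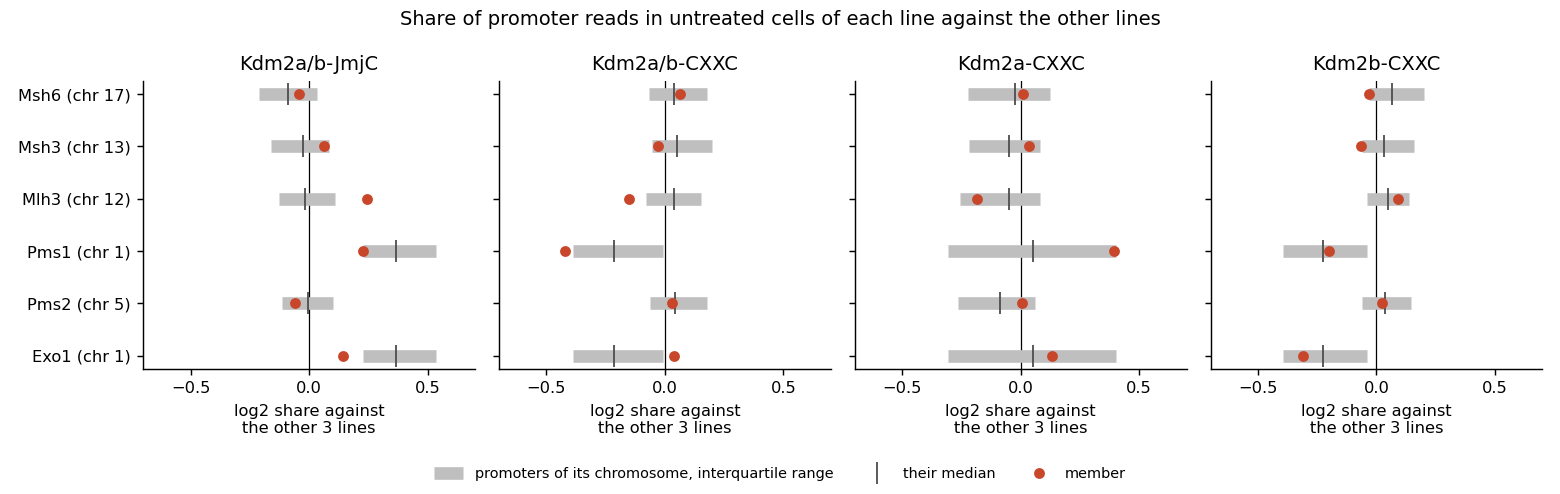
Log2 share of promoter reads of each member (red) in untreated cells of a line against the mean of the other 3 lines (x axis), with the interquartile range (grey) and median (black tick) of the promoters of its chromosome. Pms1 ranges from -0.42 in Kdm2a/b-CXXC to 0.39 in Kdm2a-CXXC, while Msh6, Msh3 and Pms2 stay within 0.07 of 0 in every line.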

How the data were processed

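Per the authors' methods, reads were mapped to joined mm10 and dm6 genomes using Bowtie 2. They removed multi-mapping reads, PCR duplicates and blacklisted or mitochondrial reads, and counted mouse reads over 400 bp promoters of 20633 genes; versions are not given in the sources used here. The deposited signal per library is that count divided by a spike-in size factor, from Drosophila reads corrected by the matched genomic DNA. The deposited log2 fold changes, scores (standard error and test statistic) and p-values are the authors' DESeq2 comparison and were not used.

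Size factors (0.718 to 1.41) and whole reads were recovered from the steps between values, 100% of them whole within 0.01. The main test was limma 3.58.1 with a mean-variance trend in R 4.3.3, two-sided, on log2(calibrated reads + 1) within a line, after filterByExpr of edgeR 4.0.16 on the recovered reads, with Benjamini-Hochberg adjustment over all promoters tested. Fold changes on this scale understate those of low promoters. Calls took an adjusted p below 0.05 and more than 1.4-fold, as in the study. Differences between lines were tested as contrasts of changes over the 3 CXXC lines. All replicate pairs differed by more than sampling noise. Alternatives were TMM and median-of-ratios scaling, edgeR and DESeq2 1.42.0 on the recovered reads, pseudocounts 5 and 0.5, no filter, a replicate block, and each library left out. Scripts were tested on simulated data.

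The members and the further lists were chosen with earlier results of these data known. Text names every member in every line, the lowest and highest promoter of each list in each line and any called, the nearest opposite-strand start within 1000 bp (reported where it lies upstream; 1 gene is not reported here), and the 3 promoters most correlated with Msh6. Identifiers were matched to symbols for 99.1% of rows; of the list and marker genes no row matched Tdg, Dppa5a or Hbb-bs. Motifs and sequences are from RefSeq and GRCm38.p6; all 6 members had a RefSeq promoter entry. Genomic DNA libraries were not analysed here. PCR copies carry no molecular identifiers, so counting errors cover counting alone.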

Additional observations from a re-analysis of the deposited data

How the results depend on the processing

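In Kdm2a/b-JmjC, members called went from 1 to 0 with TMM scaling, median-of-ratios scaling and the replicate block with TMM scaling, and their median from -0.31 to -0.10. Msh6 was then at -0.43 in each. Pms1 reversed to 0.066 and Exo1 to 0.039 with TMM scaling, with or without the block, and to 0.069 and 0.042 with median-of-ratios scaling. DESeq2 gave no adjusted p for 5 of the 6 members there, so it gives no member count. Scaling also reversed members near 0 in the CXXC lines, given first with TMM scaling (with or without the block) and then with median-of-ratios scaling. In Kdm2a/b-CXXC, Msh6 was at -0.043 and -0.044, Msh3 at -0.032 and -0.033, and Mlh3 at -0.013 and -0.014. In Kdm2a-CXXC, Msh3 was at 0.025 and 0.029, Mlh3 at 0.065 and 0.070, and Pms1 at 0.0038 and 0.0084. In Kdm2b-CXXC, Msh6 was at -0.032 and -0.035 and Pms2 at -0.086 and -0.089, and Exo1 at -0.0010 with median-of-ratios scaling alone. Pms1 in Kdm2a/b-CXXC was at 0.031 with edgeR and 0.033 with DESeq2. The cause was not tested.

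Without 1 library, members called in Kdm2a/b-JmjC were 0 to 1. In Kdm2a/b-CXXC the range was -0.11 to 0.14 for Msh6, -0.076 to 0.20 for Msh3, -0.071 to 0.21 for Mlh3, -0.22 to 0.12 for Pms1 and -0.052 to 0.12 for the median. In Kdm2a-CXXC it was -0.30 to 0.071 for Mlh3. In Kdm2b-CXXC it was -0.12 to 0.28 for Msh6, -0.16 to 0.35 for Mlh3, -0.28 to 0.27 for Pms1, -0.20 to 0.32 for Pms2, -0.069 to 0.21 for Exo1 and -0.14 to 0.30 for the median. Among ranges on 1 side of 0, those of over 1.5 times were, in Kdm2a/b-JmjC, -0.61 to -0.30 for Mlh3, -0.19 to -0.075 for Pms1, -0.28 to -0.18 for Pms2 and -0.27 to -0.011 for Exo1; in Kdm2a-CXXC, -0.36 to -0.065 for Msh6, -0.26 to -0.043 for Msh3, -0.33 to -0.056 for Pms1, -0.36 to -0.056 for Pms2, -0.40 to -0.17 for Exo1 and -0.28 to -0.060 for the median; in Kdm2a/b-CXXC, 0.033 to 0.24 for Pms2 and -0.25 to -0.018 for Exo1; and in Kdm2b-CXXC, 0.032 to 0.42 for Msh3. Members called in the CXXC lines stayed at 0 in every alternative run.

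Same-numbered deviations from the group means correlated over promoters by -0.0090 to 0.073. In Kdm2a/b-JmjC alone each correlated best with its own number. Such a correlation does not see a shift common to all promoters of a library, so it cannot decide whether replicate numbers pair the libraries. In Kdm2a-CXXC the calibrated totals of replicates 1, 2 and 3 were 2.13, 2.30 and 2.51 M untreated. After tamoxifen they were 1.76, 2.04 and 2.33 M, in the same order. The order was also the same in both groups of Kdm2b-CXXC, but not in the other lines. With the replicate block, 62 promoters were called in Kdm2a/b-JmjC in place of 13, and 188 in Kdm2a-CXXC and 5 in Kdm2b-CXXC in place of 0. The block with TMM scaling called 0 for Kdm2a/b-JmjC, 23 for Kdm2a/b-CXXC and 1 for Kdm2b-CXXC, while TMM or median-of-ratios scaling alone called 0, 17 and 1 for these. edgeR called 114 in Kdm2a/b-JmjC, DESeq2 called 12 and pseudocount 5 called 71. Without 1 library the count there ran from 0 (without untreated replicate 1 or 2) to 622 (without treated replicate 1), with 3 without treated replicate 3 and 36 without untreated replicate 3. It reached 8 for Kdm2a/b-CXXC (without treated replicate 4) and 50 for Kdm2a-CXXC (without treated replicate 3). Depth limits single promoters to the counting error given, and the spread of calibration limits Kdm2b-CXXC.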
